A study of Mus musculus with 9 samples.

Results

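The 10 genes described here are *Col2a1*, *Acan*, *Sox9*, *Col9a1*, *Col9a2*, *Col9a3*, *Col11a2*, *Snorc*, *Cnmd* and *Hapln1*. Most encode parts of a chondroid matrix, the extracellular matrix of cartilage and of cartilage-like areas in tumors. *Sox9* encodes a transcription factor and *Snorc* a membrane proteoglycan. The 10 genes were taken from the count table by symbol, and they had been selected on measured values of these same tumors. The reason was that *Col2a1* and *Acan* were higher in treated than in saline tumors while *Snorc* and *Cnmd* were not. They make up 10 of the 35275 genes in the table. All 10 were among the 15821 genes that passed the filter on low counts, which a gene can pass through a single group, and no further reading is given to that number.

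RNA was sequenced from 9 mammary tumors that arose in Brca1Co/Co;MMTV-Cre;p53+/- mice, 3 tumors in each of 3 groups, and each tumor was 1 replicate. In all groups the mouse mammary tumor virus promoter drove Cre recombinase, mainly in mammary epithelium, to delete the floxed *Brca1* alleles, and the animals carried p53 in the heterozygous state. The groups received saline, free Talazoparib by vein (i.v. TLZ) or liposomal Talazoparib by vein (NanoTLZ), with 0.33 mg/kg of this PARP inhibitor per dose in both treated groups and 5 doses given 3 times a week. No tumor given empty nanoparticles or the solvent of the free drug was analysed here, so drug and carrier cannot be told apart in the comparisons with saline.

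In cartilage, type II collagen (*Col2a1*) forms thin fibrils together with type XI collagen, of which *Col11a2* encodes a chain, and type IX collagen (*Col9a1*, *Col9a2* and *Col9a3*) decorates their surface. Aggrecan (*Acan*), a large proteoglycan rich in chondroitin sulfate, fills the space between fibrils and is held on hyaluronan by the link protein *Hapln1*. SOX9 is the transcription factor that chondrocytes need to express these genes, and it is also made by ordinary mammary epithelial progenitors. *Snorc* encodes a membrane proteoglycan of chondrocytes, and *Cnmd* encodes chondromodulin, a cartilage protein that inhibits vessel growth. Cartilage-like matrix is a known feature of some metaplastic carcinomas and mixed tumors of the mammary gland.

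The 5 collagen genes share a repeat that the selection did not use, and an exon of each is printed because it shows the family feature at the level of the DNA. The chains coil into a triple helix that needs glycine at a spacing of 3 residues, and many exons of the helix are 54 bases long, which is 6 repeats. The longest uninterrupted run of such triplets in the coding sequence was 339 in *Col2a1* and 338 in *Col11a2*, and it was 113 in each of *Col9a1*, *Col9a2* and *Col9a3*, whose helix is split into 5 runs of at least 10 triplets. Exons of exactly 54 bases inside the longest run numbered 23 in *Col2a1*, 31 in *Col11a2* and 11 in each type IX gene. The exons below come from the GENCODE M21 transcripts and the GRCm38 genome, run 5′ to 3′ on the coding strand, and carry their glycine codons in capitals.
Col2a1 exon 10, chr15:97996489-97996542, minus strand: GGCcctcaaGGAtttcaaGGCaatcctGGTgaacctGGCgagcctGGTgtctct
Col11a2 exon 15, chr17:34051480-34051533, plus strand: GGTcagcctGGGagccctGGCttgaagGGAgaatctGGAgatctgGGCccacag
Col9a1 exon 18, chr1:24210373-24210426, plus strand: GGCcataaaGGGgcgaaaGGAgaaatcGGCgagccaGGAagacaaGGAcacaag
Col9a2 exon 12, chr4:121045141-121045194, plus strand: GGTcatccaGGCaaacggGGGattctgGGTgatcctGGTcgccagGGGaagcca
Col9a3 exon 13, chr2:180605727-180605780, plus strand: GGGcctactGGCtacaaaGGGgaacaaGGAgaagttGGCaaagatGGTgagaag

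Between 17538380 and 21194980 reads were counted on genes per tumor. Levels are given as counts of reads or as CPM, the count in proportion to the size of the tumor's library after TMM scaling. The floor of detection was set at 3 counts and covers counting error only. The 10 luminal epithelial markers were counted in every tumor, with a summed level of 3359 to 9654 CPM. Saline tumor 3 stood apart from the others, with 40302 counts of the basal keratin *Krt5* against 42 to 1347 in the other 8 tumors, and a fold change of both treatments against saline that moved by more than 1.5 times without it is given with and without it. The summed level of 10 skeletal muscle markers was 34.5, 206 and 757 CPM in the saline tumors and 3.33 to 31.6 CPM in the 6 treated tumors, so these markers separated the saline tumors from the treated ones, and their part in the differences described below was not tested. The tumors are bulk samples, in which fewer cells of a type and less RNA per cell cannot be told apart.

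*Col2a1* (ENSMUSG00000022483, chr15:97975602-98004695, minus strand, GRCm38), the gene of the main cartilage collagen, was low in each saline tumor and high in each treated tumor. It was counted at 9.38, 14.2 and 21.2 CPM in saline tumors 1 to 3, at 191, 176 and 141 CPM in the i.v. TLZ tumors, and at 298, 628 and 798 CPM in the NanoTLZ tumors. All 6 treated tumors lay above all 3 saline tumors, and all 3 NanoTLZ tumors lay above all 3 i.v. TLZ tumors. The group means were 14.9 ± 5.95 CPM (SD, n = 3) for saline, 169 ± 25.6 CPM for i.v. TLZ and 575 ± 255 CPM for NanoTLZ. The fitted log2 fold change against saline was 3.50 with a standard error (SE) of 0.45 for i.v. TLZ and 5.26 (SE 0.49) for NanoTLZ. Since the gene was chosen for this contrast, these values describe the tumors and no test is read from them. *Col2a1* was the 1 member whose treated tumors all exceeded the saline tumors, a pattern shown by 2.81% of all tested genes, and in 0 members did all treated tumors lie below all saline tumors, a pattern shown by 2.67%. With edgeR's quasi-likelihood F-test at an adjusted p under 0.05, the share of all tested genes called was 0% for i.v. TLZ against saline, 0.00632% for NanoTLZ against saline and 0.019% for both treatments against saline. *Col2a1* was among the genes called in the last 2 of these comparisons, and nothing is read from that.

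**Figure D1:**
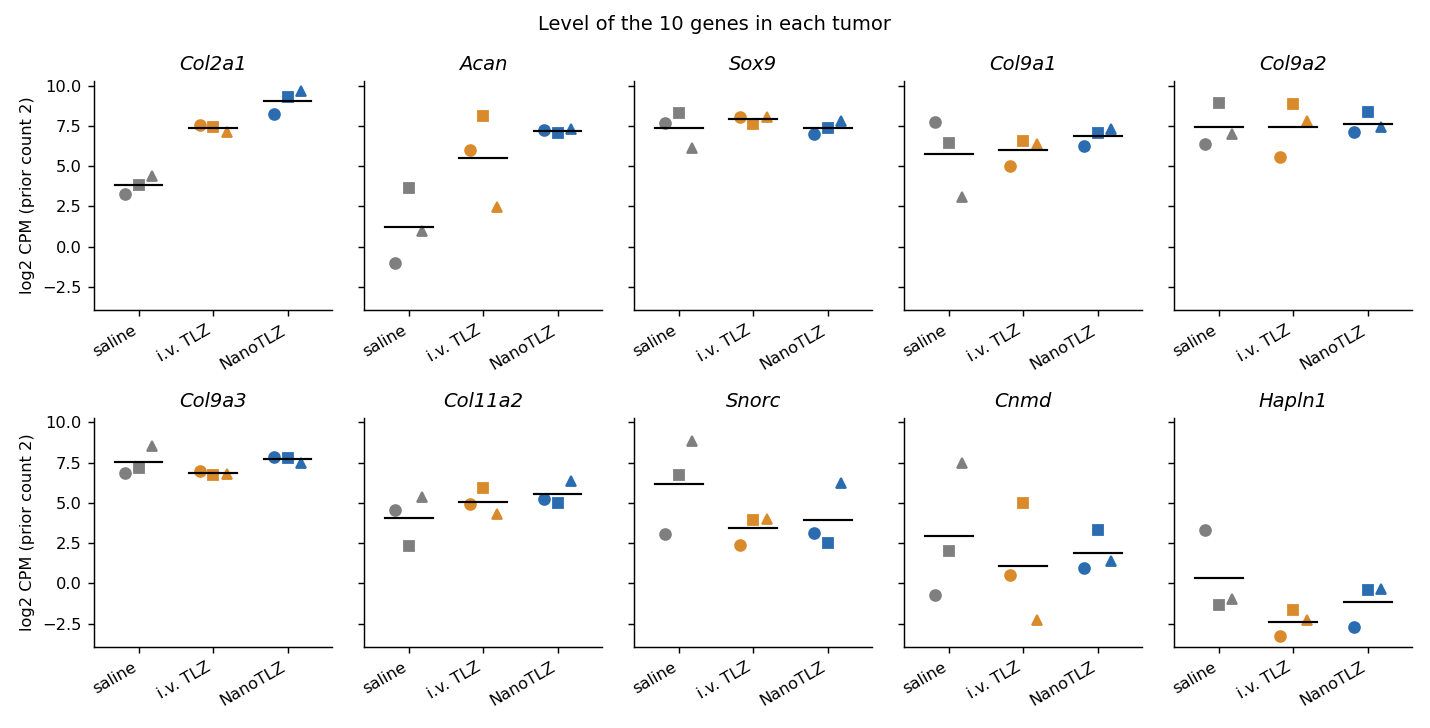
Level of each of the 10 genes in each tumor as log2 CPM with a prior count of 2 (vertical axis), by group (horizontal axis), with circles, squares and triangles for tumors 1, 2 and 3 of a group and a bar at the group mean. *Col2a1* is the gene in which the 3 groups do not overlap, while in *Snorc* and *Cnmd* saline tumor 3 (grey triangle) lies far above the other saline tumors.

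The contrast between NanoTLZ and i.v. TLZ was not itself the reason for choosing the genes. It shares its treated tumors with the contrasts that were, and a gene picked for high treated values can stand out in it too. Its values are therefore not free of the selection. In this contrast *Col2a1* was higher in NanoTLZ tumors by 1.76 on the log2 scale (SE 0.42, 95% confidence interval 0.83 to 2.70), or 3.40-fold. Its unadjusted p of 0.00183 was number 6 of 15821 from the smallest, and after Benjamini-Hochberg adjustment over all genes edgeR gave an adjusted p of 0.9999, so the difference did not pass the threshold. The adjusted p was 0.304 with DESeq2 fitted to all 9 tumors and 0.0241 with DESeq2 fitted to these 6 tumors. That last fit called 0.0855% of the genes with a p-value, which include genes with low counts. Over the alternatives tried the adjusted p ranged from 0.0241 to 1, while the fold change stayed between 1.47 and 2.08 on the log2 scale. The test called 0 of 15821 genes (0%) in this comparison with edgeR, 0 with limma-voom and 3 with DESeq2 fitted to all 9 tumors, while 266 genes had an unadjusted p under 0.05, 71 of them higher and 195 lower in NanoTLZ.

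None of the other 9 genes passed the threshold in the direct comparison. *Col9a3* was the other member whose NanoTLZ tumors all exceeded the i.v. TLZ tumors, with a log2 difference of 0.88 (SE 0.41, 95% confidence interval -0.03 to 1.80, adjusted p of 0.9999 by edgeR's quasi-likelihood test). With *Col2a1* that made 2 of 10 members, against 3.21% of all tested genes with this pattern, and 0 of 10 members had all NanoTLZ tumors below all i.v. TLZ tumors, against 4.39% of all genes. The fold change was above 0 for 7 of the 10 members, with a median of 0.64, and for 45.6% of all tested genes, with a median of -0.04. The intervals were wide for most members. That of *Acan* ran from -2.27 to 3.03 around 0.38 and that of *Cnmd* from -5.43 to 2.99 around -1.22, so differences of several fold in either direction between the formulations lie within these intervals.

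**Figure D2:**
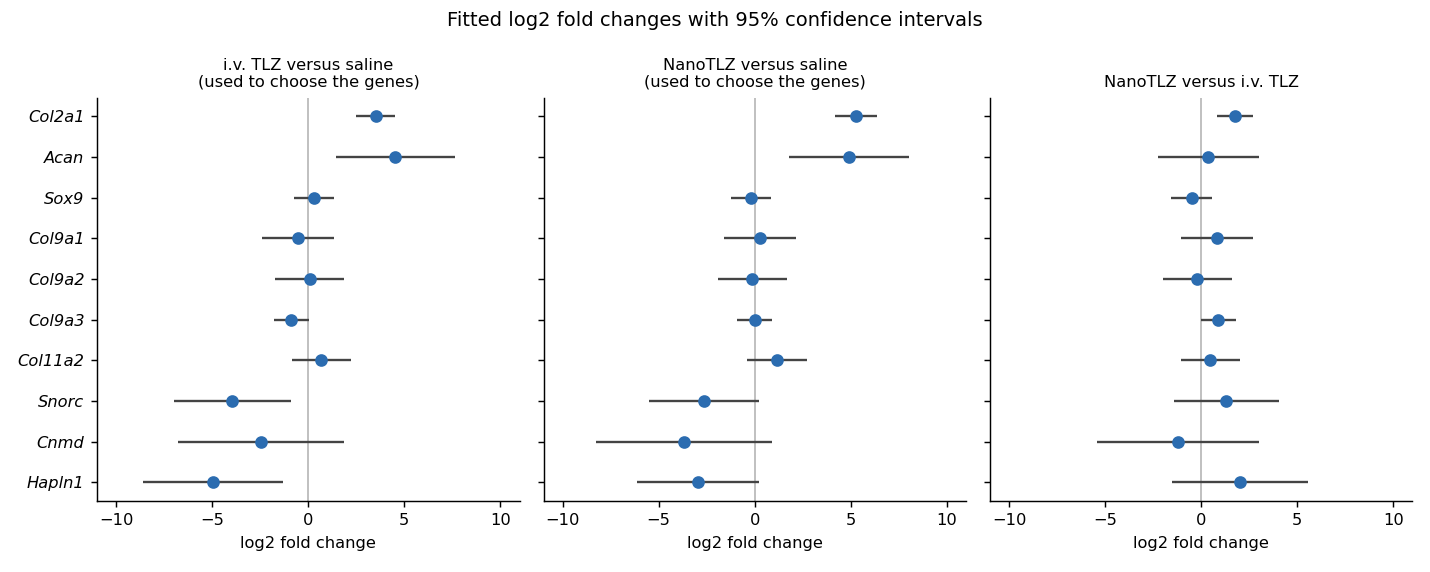
Fitted log2 fold change (point) and its 95% confidence interval (line) for each of the 10 genes in 3 comparisons, in edgeR fitted to all 9 tumors, with the vertical line at no change. Against saline the points of *Col2a1* and *Acan* lie right of 0 and those of *Snorc*, *Cnmd* and *Hapln1* left of 0, and between the formulations *Col2a1* is the gene whose interval, 0.83 to 2.70, leaves out 0.

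The nearest tested genes beside *Col2a1* did not show its pattern. *Tmem106c*, 5327 bases away on the side of lower coordinates, differed between both treatments and saline by -0.32 (SE 0.25) on the log2 scale, with an edgeR adjusted p of 0.587. *Senp1*, a SUMO protease gene 34049 bases away on the other side, differed by -0.61 (SE 0.26), with an adjusted p of 0.365.

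*Acan* (ENSMUSG00000030607, chr7:79053483-79115099, plus strand), which encodes the core protein of aggrecan, was near the floor in a saline tumor and varied widely among the i.v. TLZ tumors. It was counted at 7, 262 and 40 reads in the saline tumors, at 1298, 5021 and 99 reads in the i.v. TLZ tumors, and at 3131, 2497 and 3074 reads in the NanoTLZ tumors. As CPM these were 0.400, 12.5 and 1.83 for saline, 62.9, 274 and 5.35 for i.v. TLZ, and 151, 136 and 159 for NanoTLZ. The groups overlapped, because i.v. TLZ tumor 3 lay below saline tumor 2, while the 3 NanoTLZ tumors lay within 1.17-fold of each other and the 3 i.v. TLZ tumors spread over 51.2-fold. Against saline, the fitted log2 fold change was 4.53 (SE 1.38) for i.v. TLZ and 4.91 (SE 1.41) for NanoTLZ, again as a description. Leaving out i.v. TLZ tumor 2 lowered the value for i.v. TLZ to 2.79, and leaving out saline tumor 2 raised it to 6.64. *Acan* and *Col2a1* thus differed in tumor order, since the highest *Acan* of all 9 tumors was in i.v. TLZ tumor 2 and the highest *Col2a1* in NanoTLZ tumor 3.

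The window before the *Acan* start in RefSeq is printed because an antisense gene, described below, overlaps it. The RefSeq table used here (GRCm38.p6) gave such windows for 6 of the 10 genes, 7 windows in all, namely *Acan*, *Cnmd*, *Col9a1*, *Col9a2*, *Col11a2* and *Hapln1*. In the 250 bases before each start, both strands were searched for the SOX core motifs AACAAT and ACAAAG, the TATA box TATAAA and the GC box GGGCGG, which occur in 9.42%, 16.5%, 12.4% and 32.7% of 32851 windows of that length. The *Acan* window held 3 GC boxes, of which 2 overlap, and was 74.4% G or C, and the *Cnmd* window held none of the 4 motifs and was 54% G or C. Neither SOX core was found in any of the 7 windows, *Col9a2* held 2 GC boxes, *Col11a2* held 1 TATA box and 2 GC boxes, and the windows of *Hapln1* and *Col9a1* held none of the motifs. These matches describe the letters only. Both sequences run 5′ to 3′ toward the start, with GC boxes in capitals.
Acan window, chr7:79052976-79053225, plus strand: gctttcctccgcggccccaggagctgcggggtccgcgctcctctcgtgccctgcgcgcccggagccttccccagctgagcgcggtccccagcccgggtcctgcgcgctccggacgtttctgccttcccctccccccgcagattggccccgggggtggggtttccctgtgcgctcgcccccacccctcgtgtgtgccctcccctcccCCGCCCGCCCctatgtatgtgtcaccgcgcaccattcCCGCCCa
Cnmd window, chr14:79662184-79662433, minus strand: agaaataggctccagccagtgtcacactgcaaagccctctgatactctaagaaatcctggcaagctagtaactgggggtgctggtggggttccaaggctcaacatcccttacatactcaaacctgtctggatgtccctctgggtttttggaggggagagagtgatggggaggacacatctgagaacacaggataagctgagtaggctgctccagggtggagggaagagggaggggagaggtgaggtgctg

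*Gm26633*, a noncoding gene on the minus strand whose span (chr7:79018053-79053323) ends 160 bases before *Acan* in GENCODE and contains the printed window, was counted at 0, 1 and 3 reads in the saline tumors, 5, 30 and 0 in the i.v. TLZ tumors, and 21, 39 and 6 in the NanoTLZ tumors. Its counts were at the floor in every saline tumor and in i.v. TLZ tumor 3, the treated tumor with the lowest *Acan*. Its edgeR adjusted p was 0.338 for both treatments against saline. On the other side of *Acan*, *Hapln3*, a relative of the link protein gene, lay 3 bases away and differed by 0.24 (SE 0.67) on the log2 scale, with an adjusted p of 0.902, and by -0.28 without saline tumor 3. The strand setting of the counting was not given in the sources used here, so reads of *Acan* and of genes on the opposite strand could not be checked against each other.

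*Hapln1* (ENSMUSG00000021613, chr13:89539796-89611652, plus strand), the link protein that holds aggrecan on hyaluronan, was low in 8 of the 9 tumors. It was counted at 175, 6 and 9 reads in the saline tumors, 0, 4 and 2 in the i.v. TLZ tumors and 1, 12 and 13 in the NanoTLZ tumors. A single tumor, saline tumor 1, held most of its 222 reads. The fitted log2 fold change of both treatments against saline was -3.96 (SE 1.18) with all tumors and -0.61 without saline tumor 1. At such counts a fitted value can depend on the prior count of the fit, for which no other value was tried.

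The genes of the minor fibril collagens were counted in every tumor, and in none of them did the saline tumors separate from the treated tumors. *Col9a1* (ENSMUSG00000026147, chr1:24177610-24252684, plus strand) ranged from 8.51 to 212 CPM in saline tumors, from 31.7 to 93.9 CPM in i.v. TLZ tumors and from 76.3 to 158 CPM in NanoTLZ tumors. *Col9a2* (ENSMUSG00000028626, chr4:121039385-121055322, plus strand) ranged from 82.6 to 483 CPM, from 47.5 to 465 CPM and from 142 to 324 CPM in the same order. In both genes the saline tumors alone spanned the range of most treated tumors.

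*Col9a3* (ENSMUSG00000027570, chr2:180597790-180622189, plus strand) was measured at 116, 146 and 373 CPM in the saline tumors, 127, 105 and 112 CPM in the i.v. TLZ tumors and 231, 224 and 179 CPM in the NanoTLZ tumors. The NanoTLZ tumors lay above the i.v. TLZ tumors, and the saline tumors reached both above and below the NanoTLZ tumors. The end of *Col9a3* overlaps *Tcfl5* on the opposite strand, which had 399 counts in i.v. TLZ tumor 3 and 1 to 5 in the other 8 tumors, against 2075 of *Col9a3* in that tumor.

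*Col11a2* (ENSMUSG00000024330, chr17:34039437-34066685, plus strand), which encodes a chain of type XI collagen, was measured at 23.4, 4.95 and 40.4 CPM in the saline tumors, 29.9, 60.3 and 19.5 CPM in the i.v. TLZ tumors and 37.4, 31.5 and 82.8 CPM in the NanoTLZ tumors. Its highest tumor, NanoTLZ tumor 3, was also the highest for *Col2a1*. The fitted log2 fold changes of both treatments against saline were -0.14 (SE 0.72) for *Col9a1*, -0.02 (SE 0.70) for *Col9a2*, -0.45 (SE 0.35) for *Col9a3* and 0.91 (SE 0.62) for *Col11a2*. The 95% interval of each held 0, and that of *Col11a2* ran from -0.48 to 2.29. Without saline tumor 3 the values were 0.26 for *Col9a3* and 1.63 for *Col11a2*. The ratio of *Col2a1* to *Col11a2*, both per kilobase of annotated exon, was 0.298, 2.14 and 0.390 in the saline tumors, 4.75, 2.17 and 5.37 in the i.v. TLZ tumors, and 5.92, 14.8 and 7.17 in the NanoTLZ tumors. The treated tumors lay above the saline tumors in this ratio of type II collagen to its fibril partner, by a narrow margin between saline tumor 2 and i.v. TLZ tumor 2. *Col2a1* was chosen for being higher in treated tumors, so the order of saline and treated tumors in this ratio is a description and no separate result.

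*Sox9* (ENSMUSG00000000567, chr11:112782224-112787760, plus strand), the regulator of the set, varied over 4.599-fold across the 9 tumors, against 85.1-fold for *Col2a1* and 685-fold for *Acan*. It was measured at 204, 321 and 69.9 CPM in the saline tumors, 266, 201 and 269 CPM in the i.v. TLZ tumors and 128, 167 and 226 CPM in the NanoTLZ tumors. The 3 groups overlapped, and the lowest tumor was saline tumor 3. For both treatments the log2 fold change against saline was 0.06 (SE 0.41, 95% confidence interval -0.86 to 0.97), which leaves room for a change of nearly 2-fold in either direction. In the direct comparison NanoTLZ differed from i.v. TLZ by -0.50 (SE 0.47, 95% confidence interval -1.55 to 0.56).

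*Snorc* (ENSMUSG00000026258, chr1:87470271-87475482, plus strand), the chondrocyte membrane proteoglycan, was measured at 8.41, 104 and 449 CPM in the saline tumors, 5.13, 15.4 and 15.7 CPM in the i.v. TLZ tumors and 8.66, 5.56 and 75.8 CPM in the NanoTLZ tumors. Saline tumors 2 and 3 lay above every treated tumor, and saline tumor 1 lay among the treated tumors. The fitted log2 fold change of both treatments against saline was -3.30 (SE 1.02) and became -1.55 without saline tumor 3.

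*Cnmd* (ENSMUSG00000022025, chr14:79637690-79662170, minus strand), which encodes chondromodulin, rested on that tumor more strongly still. It was counted at 9, 81 and 3963 reads in the saline tumors, 27, 590 and 2 reads in the i.v. TLZ tumors and 39, 184 and 49 reads in the NanoTLZ tumors. Saline tumor 3 thus held 3963 of the 4944 reads of the gene. For both treatments against saline the fitted log2 fold change was -3.08 (SE 1.55) with all tumors and changed sign to 1.76 without saline tumor 3. Among treated tumors the highest *Cnmd* was in i.v. TLZ tumor 2, where *Acan* was also highest, and without that tumor the difference between NanoTLZ and i.v. TLZ turned from -1.22 to 2.74.

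**Figure D3:**
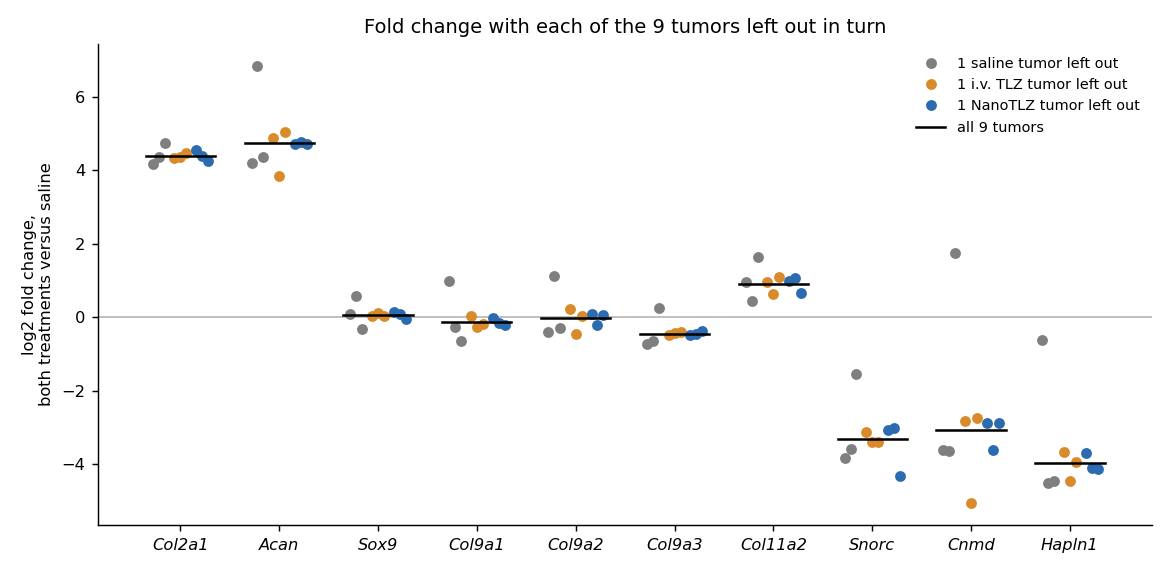
Log2 fold change of both treatments against saline (vertical axis) for each of the 10 genes, with all 9 tumors (black bar) and with each tumor left out in turn (points, colored by the group of the tumor left out). *Col2a1* stays between 4.16 and 4.74, *Cnmd* ranges from -5.05 to 1.76, and the grey points far from the bar of *Hapln1*, *Snorc* and *Cnmd* are fits without 1 saline tumor.

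Scaled by the length of all annotated exons, the genes are given here in the order of their levels in each group. The places of *Col2a1*, *Acan*, *Snorc* and *Cnmd* in saline against treated tumors follow from how the genes were chosen and are a description. In saline tumors the mean level was highest for *Snorc* at 259 ± 321 CPM per kilobase (SD, n = 3), followed by *Col9a2* at 74.5 ± 70.9, *Col9a3* at 55.0 ± 36.4 and *Sox9* at 48.0 ± 30.4, and these neighbors did not differ beyond their spread. *Col2a1* at 1.62 ± 0.64, *Acan* at 0.66 ± 0.88 and *Hapln1* at 0.60 ± 0.94 were last. In NanoTLZ tumors *Col9a2* at 68.5 ± 31.7, *Col2a1* at 62.2 ± 27.5, *Col9a3* at 54.8 ± 7.36, *Sox9* at 42.0 ± 11.9 and *Snorc* at 41.6 ± 55.0 CPM per kilobase came first. Their ranges of mean ± SD overlapped, and their order was not tested. In i.v. TLZ tumors *Col2a1* took rank 4 of 10 at 18.3 ± 2.77 CPM per kilobase, behind *Col9a2*, *Sox9* and *Col9a3*.

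The share of each gene in the summed level of the set is a description of the same kind, since the genes were chosen on the difference between saline and treated tumors. *Col2a1* supplied 0.610%, 0.351% and 0.259% of the summed level per kilobase in the saline tumors, 12.9%, 5.47% and 6.86% in the i.v. TLZ tumors and 14.5%, 20.3% and 20.9% in the NanoTLZ tumors. *Snorc* supplied 7.002%, 32.9% and 70.3% in the saline tumors and 2.31% to 25.4% in the treated tumors. When the longest coding transcript of each gene was used as its length, a choice made after seeing the data, the share of *Col2a1* was 0.330% to 0.934% in saline tumors and 20.9% to 28.9% in NanoTLZ tumors.

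**Figure D4:**
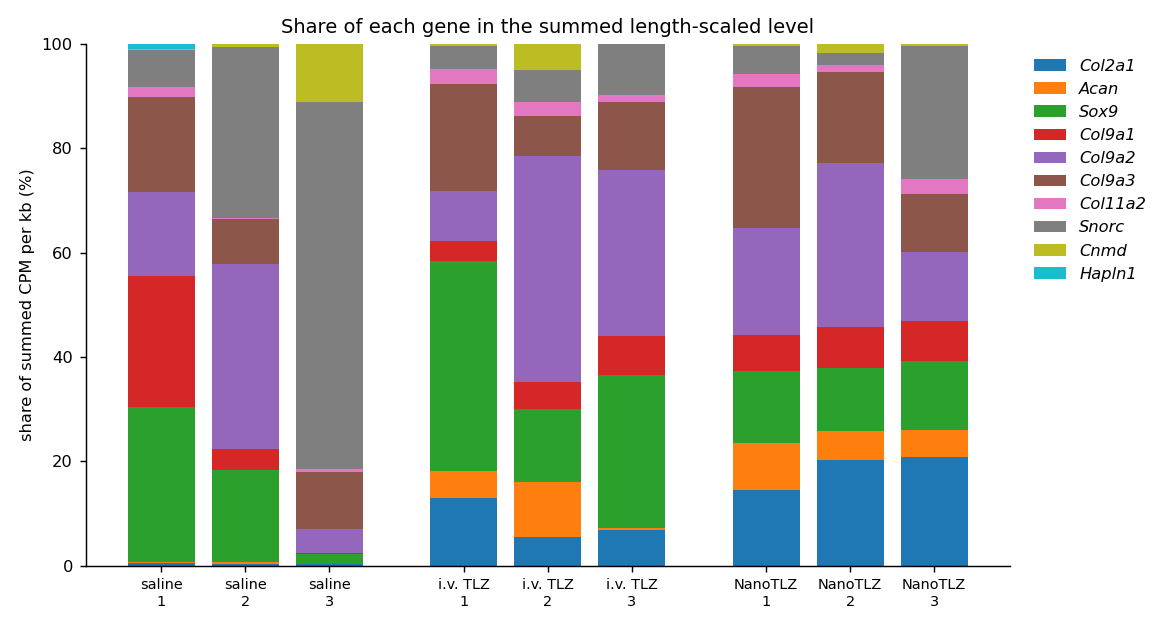
Share of each gene in the summed CPM per kilobase of the 10 genes (vertical axis, percent) in each tumor, with tumors 1 to 3 of each group side by side. *Col2a1* (blue, at the base) is below 1% in each saline tumor and reaches 20.9% in NanoTLZ tumor 3, and *Snorc* (grey) takes 70.3% of saline tumor 3.

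The spread among tumors of the same group was wide for most of these genes. The biological coefficient of variation, estimated for each gene within groups, was 37.8% for *Col2a1*, 37.6% for *Col9a3* and 42.4% for *Sox9*, and between 58.9% and 139% for the other 7 genes. All tested genes were then ranked by this coefficient relative to the trend fitted for genes of similar level. In that ranking the 7 genes lay at or above percentile 90, led by *Cnmd* at percentile 99.9, *Acan* and *Snorc* at 99.6 and *Col9a1* at 97.7. *Col2a1* lay at 68.6. *Col2a1* and *Acan*, paired by the selection, were thus measured with unlike precision, as their standard errors of 0.45 and 1.34 for both treatments against saline show.

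Whether the genes varied together from tumor to tumor was examined after each group's mean log2 CPM was subtracted, which takes out the contrast used for the selection. Over the 9 tumors, Pearson's r of *Col2a1* with *Acan* was 0.31 (exact permutation within groups over 216 arrangements, two-sided p of 0.384, adjusted p of 0.674 over the 9 genes) and Spearman's rho was 0.20 (p of 0.588, adjusted p of 0.818, by the same exact permutation). The highest r was with *Snorc* at 0.67 (exact permutation p of 0.167, adjusted p of 0.674), with a rho of 0.47 (p of 0.329, adjusted p of 0.818). For *Cnmd* r was 0.60 (exact permutation p of 0.0694, adjusted p of 0.625) and rho was 0.73 (p of 0.0231, adjusted p of 0.208), and for *Sox9* r was -0.15 (exact permutation p of 0.810, adjusted p of 0.870) and rho was -0.03 (p of 0.963, adjusted p of 0.963). The 2 tumors farthest from the median, saline tumor 1 and NanoTLZ tumor 1, were then dropped, with the group means of all 9 tumors still subtracted. Over the remaining tumors r was 0.14 for *Acan*, 0.51 for *Snorc*, 0.54 for *Cnmd* and -0.43 for *Sox9*. The dropped tumors thus still shaped these values through the means. None of the 9 relations passed the threshold after adjustment, and the smallest p that 216 arrangements allow is 0.0046.

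The genes whose log2 CPM over the 9 tumors was most like that of *Col2a1*, as a description that includes the difference between groups, were *Doc2g* (r of 0.95), *Habp4* (0.93), *Tor1a* (0.92), *Gja4*, a gap junction gene of arterial endothelium (0.92), and *1700037H04Rik* (0.89), among 14195 genes with a mean of at least 1 CPM. None of these 5 is a listed cartilage gene, and they spanned a narrower range than *Col2a1*. *Doc2g* had 33 to 59 counts in saline and 87 to 117 counts in treated tumors. Of the other members, *Acan* had an r of 0.84 with *Col2a1*, *Col11a2* 0.60, *Sox9* 0.07 and *Snorc* -0.38. The genes most like *Snorc* were *Cnot8* (0.95), *5530601H04Rik* (0.94), *2610318N02Rik* (0.93), *Lpar5* (0.92) and *Mzf1* (0.91), and each had its highest count in saline tumor 3.

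Of 18 other structural genes of cartilage matrix, 14 were tested, and edgeR called 0 of them in each comparison, as did limma-voom, while DESeq2 fitted to all 9 tumors called *Matn4* and *Cilp2* as higher in each comparison with saline. That DESeq2 fit called 0.773% of the 25112 genes with a p-value for i.v. TLZ, 0.434% for NanoTLZ and 1.1% for both treatments against saline. Its calls in the lists below stand beside these shares. The 25112 genes include ones with low counts, to which DESeq2 can give no adjusted p, so the shares may be too low for lists of expressed genes. At an unadjusted p under 0.05 in edgeR for both treatments against saline, 2 of the 14 were higher and 0 lower, where 4.8% of all tested genes were higher and 8.29% lower, shares that hold for the same counts in the lists below. With so few genes per list, nothing particular to a list is read from these counts. The 14 genes had a median log2 fold change of 0.34 against -0.06 over all genes tested. *Cilp2*, a matrix protein gene of articular cartilage, was counted at 12, 7 and 17 reads in saline tumors, 592, 57 and 58 in i.v. TLZ tumors and 45, 115 and 753 in NanoTLZ tumors, and was the 1 gene of the list whose treated tumors all lay above the saline tumors. *Matn4*, a matrilin that links matrix fibers, had 118, 87 and 4 reads in saline tumors, 963, 103 and 927 in i.v. TLZ tumors and 1441, 1088 and 1165 in NanoTLZ tumors, so its groups overlapped in i.v. TLZ tumor 2. *Matn2*, another matrilin, had its highest count of 3270 in saline tumor 3, and its log2 fold change of -1.65 (SE 0.77) turned to 0.57 without that tumor. Several genes of mature cartilage were at or near the floor in all 9 tumors, with 0 to 3 counts of *Matn1*, 0 to 2 of *Epyc* and 0 to 1 of *Clec3a*. *Col10a1*, the collagen of hypertrophic chondrocytes, was counted at 58 to 514 reads with no order by group.

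Among 14 transcription factors of cartilage besides *Sox9*, 12 were tested and edgeR called 0, with 2 higher and 1 lower at an unadjusted p under 0.05 for both treatments against saline. *Runx2*, which drives hypertrophy and bone formation, was counted at 722, 725 and 236 reads in saline tumors, 1207, 1219 and 984 in i.v. TLZ tumors and 1027, 947 and 880 in NanoTLZ tumors, with a log2 fold change of 0.90 (SE 0.37). *Prrx1*, a factor of limb mesenchyme, had a log2 fold change against saline of 1.70 (SE 0.31) for i.v. TLZ and 0.32 (SE 0.30) for NanoTLZ, and NanoTLZ differed from i.v. TLZ by -1.38 (SE 0.30) with an edgeR adjusted p of 0.9999. DESeq2 fitted to all 9 tumors called *Prrx1* as higher in i.v. TLZ and in both treatments, and limma-voom called 0 genes of the list. *Sox6*, a partner of SOX9 on its target genes, had -1.45 (SE 0.49) for both treatments and -0.77 without saline tumor 3, which held its highest count, 682. *Barx1*, a factor of craniofacial mesenchyme named here after its values were seen, had 636 counts in i.v. TLZ tumor 2, the tumor with the highest *Acan*, and 0 to 23 in the other 8 tumors.

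Of 19 growth factors, receptors and antagonists of cartilage, 17 were tested and edgeR called 0, with 3 higher and 0 lower at an unadjusted p under 0.05 for both treatments against saline. *Fgf18*, a growth factor for chondrocytes, had 1, 0 and 0 reads in saline tumors, 26, 39 and 7 in i.v. TLZ tumors and 11, 4 and 6 in NanoTLZ tumors, so it was at the floor in each saline tumor and above it in each treated tumor. *Bmp4*, a ligand that promotes cartilage formation, had 7, 80 and 6 reads in saline tumors, 114, 301 and 32 in i.v. TLZ tumors and 62, 70 and 543 in NanoTLZ tumors. *Grem1*, an antagonist of such ligands, had 40, 25 and 0, then 399, 8 and 69, then 92, 501 and 78 reads in the same order. Both overlapped between saline and treated tumors. DESeq2 fitted to all 9 tumors called *Fgf18* as higher in i.v. TLZ and in both treatments, and limma-voom called 0.

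Enzymes and transporters that make chondroitin sulfate, the sugar chain of aggrecan, gave 19 tested genes of 20, with 0 called by edgeR, 1 higher and 2 lower at an unadjusted p under 0.05, and a median log2 fold change of -0.16. *Chst11*, a chondroitin sulfotransferase, was counted at 3013, 1932 and 2593 reads in saline tumors and at 671 to 1426 reads in treated tumors, and its log2 fold change of both treatments against saline was -1.20 (SE 0.25, edgeR adjusted p of 0.216). *Chst3*, which sulfates chondroitin at another position, had 980 reads in saline tumor 3 and 35 to 144 in the other tumors. *Papss2*, which makes the sulfate donor, had a log2 fold change of 1.28 (SE 0.62), and its highest count, 497, was in i.v. TLZ tumor 2. For both treatments DESeq2 fitted to all 9 tumors called *Chst11* as lower and *B4galt7*, which builds the linker of the chain, as higher, and limma-voom called 0.

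All 8 listed proteases that cut aggrecan or type II collagen were tested, with 0 called by edgeR and 2 higher and 1 lower at an unadjusted p under 0.05. *Mmp3*, stromelysin, was counted at 118, 86 and 17 reads in saline tumors, 2063, 1427 and 305 in i.v. TLZ tumors and 3415, 2567 and 363 in NanoTLZ tumors, with all treated tumors above all saline tumors. *Mmp13*, the main collagenase of type II collagen, had 194, 533 and 85 reads, then 7838, 419 and 1386, then 15031, 7707 and 1880 in the same order, and overlapped between groups in i.v. TLZ tumor 2. Their log2 fold changes of both treatments against saline were 4.43 (SE 0.99) and 4.25 (SE 1.10). *Adamts9*, an aggrecanase, had 2107, 1553 and 2255 reads in saline tumors and 370 to 1282 reads in treated tumors. DESeq2 fitted to all 9 tumors called these 3 proteases for both treatments against saline, the first 2 as higher and *Adamts9* as lower, and limma-voom called 0.

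**Figure D5:**
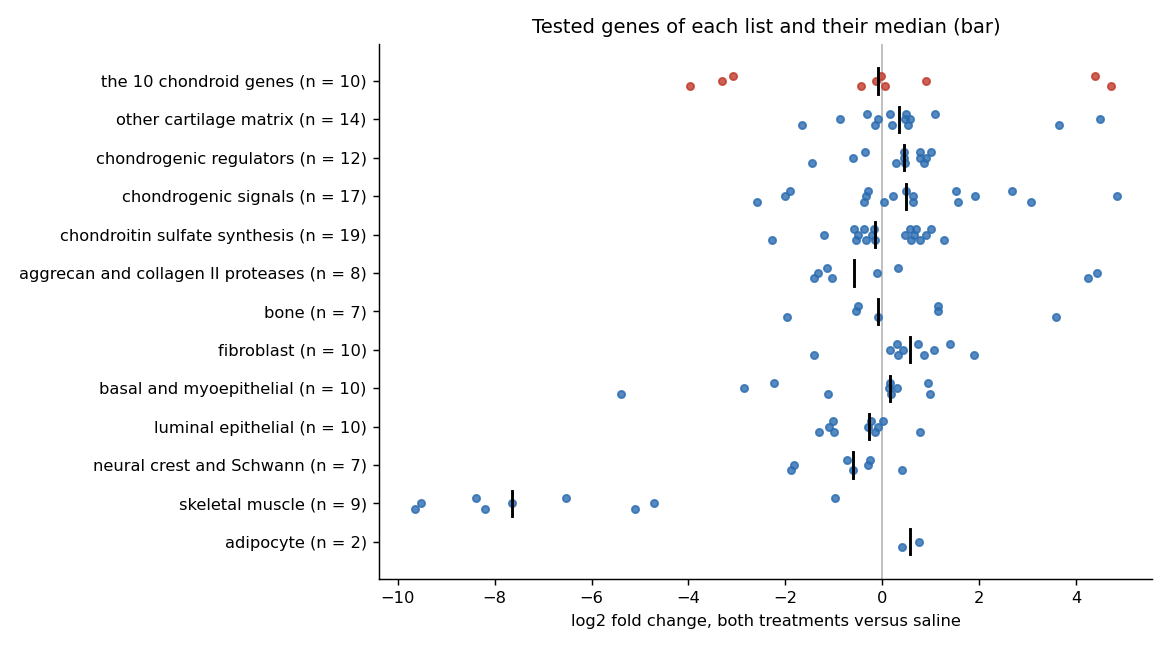
Log2 fold change of both treatments against saline (horizontal axis) for each tested gene of each list (points), with a bar at the list's median and n the number of tested genes. The 10 chondroid genes (red) spread from -3.96 for *Hapln1* to 4.72 for *Acan* around a median of -0.08, and 9 of 9 tested skeletal muscle genes lie left of 0.

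Marker genes of other cell types were measured beside these values. For 10 bone markers the summed level was 1950, 916 and 87.2 CPM in saline tumors and 1189 to 4533 CPM in treated tumors, most of it from *Spp1*, which mammary epithelium and macrophages also express, while *Bglap*, *Bglap2* and *Mepe* had at most 7, 4 and 1 counts in any tumor. *Phex*, a gene of bone cells, had 0, 2 and 2 reads in saline tumors and 7 to 38 in treated tumors, and *Sp7*, a bone factor, had 3, 55 and 46 reads in saline tumors and 2 to 30 in treated tumors. For 10 fibroblast markers the summed level was 2103, 1521 and 1531 CPM in saline tumors, 6148, 1024 and 2567 CPM in i.v. TLZ tumors and 3174, 2624 and 1754 CPM in NanoTLZ tumors. The fibroblast sum was lowest in i.v. TLZ tumor 2, where *Acan* was highest. *Dcn*, a fibroblast proteoglycan, was the 1 gene of that list whose treated tumors all lay above the saline tumors, with a log2 fold change of 1.90 (SE 0.69), *Dpt* had 1.39 (SE 0.88) and *Pdpn* -1.40 (SE 0.59), or -0.18 without saline tumor 3.

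The sum of 10 basal and myoepithelial markers was 1469, 1101 and 3725 CPM in saline tumors and 345 to 3272 CPM in treated tumors. *Krt5*, *Trp63* and *Oxtr* each had their highest count in saline tumor 3, as did *Snorc* and *Cnmd*. The other listed basal markers, apart from *Krt17*, depended less on that tumor. Without it, log2 fold changes of both treatments against saline fell from 0.14 to 0.07 for *Krt14* and from 0.98 to 0.88 for *Myh11*. Those of *Cnn1* and *Mylk* fell from 0.94 to 0.74 and from 0.16 to -0.03. Those of *Acta2* and *Tagln* rose from 0.19 to 0.34 and from 0.30 to 0.34, and that of *Krt17* from -1.12 to 0.48. Among luminal markers, *Kit* and *Elf5* lay lower in all treated than in all saline tumors, with log2 fold changes of -1.30 (SE 0.23) and -1.01 (SE 0.24) that edgeR did not call and DESeq2 fitted to all 9 tumors did, and *Csn3*, a milk protein gene, had 105 reads in saline tumor 3 and 1571 to 17452 in the others. For 8 neural crest and Schwann cell markers the sum was 586 to 1537 CPM in saline tumors and 459 to 933 CPM in treated tumors, with *S100b*, which chondrocytes also make, at 638 reads in saline tumor 3 and 16 to 231 in the others. *Erbb3* had a log2 fold change of -0.73 (SE 0.37) and *Gfap* of -1.89 (SE 0.85). Of 10 skeletal muscle markers, 8 lay below saline in all treated tumors, a pattern shown by 2.67% of all tested genes. *Myh4* and *Myl1*, which encode fast muscle myosin chains, were called as lower in both treatments than in saline by edgeR, the only genes of the 12 lists that it called. For the same comparison DESeq2 fitted to all 9 tumors called 8 muscle markers as lower, and limma-voom called 0. *Myh4* had 105, 963 and 4641 reads in saline tumors and at most 4 in treated tumors, and *Myl1* had 53, 176 and 796 reads against at most 4. *Acta1* and *Pvalb*, also of muscle, had 91 to 5038 and 60 to 568 reads in saline tumors and at most 9 and 2 in treated tumors. Of 8 adipocyte markers 2 were tested, *Lipe* with 82 to 444 reads and *Cfd* with 6 to 393 reads over the 9 tumors. The part of any of these cell types in the values of the 10 genes was not tested.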

How the data were processed

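RNA-seq was analysed from 9 tumors, 3 per group, with groups taken from the labels. The deposited values are raw counts of reads on each gene, which the authors did not normalize. The submitters' notes name TopHat2, DESeq2 and the mm10 build, and the counting program, annotation and strand setting were not given in the sources used here. No 2 columns were identical. Identifiers were matched to GENCODE M21 (GRCm38), which gave a symbol for 34490 of 35275 genes. Total counts were 17538380 to 21194980 per tumor. Nothing states a batch. The p-values of the fold changes weigh a difference between groups against the spread among these tumors within groups.

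Genes were kept with filterByExpr (minimum count 10, minimum total count 15), scaled by TMM and fitted to all 9 tumors in edgeR 4.0.16 (estimateDisp, glmQLFit, glmQLFTest) under R 4.3.3, with Benjamini-Hochberg adjustment over 15821 genes and a threshold of 0.05. Log2 CPM used a prior count of 2. DESeq2 1.42.0 and limma-voom 3.58.1 were alternatives, as were RLE and upper quartile scaling, other filters, the robust dispersion, fits to 2 groups and each tumor left out. Python 3.11.15, pandas 2.3.3, scipy 1.17.1 and matplotlib 3.10.9 were used for the rest. In simulated counts for 15557 genes with 200 changed 8-fold in NanoTLZ, the edgeR test called 141 of them and 9 unchanged genes for NanoTLZ against saline, and 132 and 4 for NanoTLZ against i.v. TLZ.

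The members, the gene lists and the tests were chosen with earlier results of these data known. The genes named are the 10 members, from each list the called genes and up to 3 tested genes with the largest fold change of both treatments against saline, the 5 genes most correlated with *Col2a1* and with *Snorc*, and the nearest tested neighbors of *Col2a1* and *Acan*. Other genes named by their level at the floor or in a single tumor were chosen after their values were seen. Promoter windows came from RefSeq (GRCm38.p6).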

Additional observations from a re-analysis of the deposited data

How the results depend on the processing

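The test called 1 gene for NanoTLZ against saline, 3 for both treatments against saline and 0 for i.v. TLZ against saline and for NanoTLZ against i.v. TLZ. DESeq2 fitted to all 9 tumors called 194 genes for i.v. TLZ against saline, 109 for NanoTLZ against saline, 276 for both and 3 for NanoTLZ against i.v. TLZ, and fitted to 2 groups it called 92, 171 and 21 for i.v. TLZ and NanoTLZ against saline and for the 2 formulations. Without a filter on low counts edgeR called 5, 6 and 33 genes for i.v. TLZ, NanoTLZ and both against saline, fitted to 2 groups it called 0 for NanoTLZ against saline, and limma-voom called 1 for both, as did a filter of 10 counts per tumor. With each tumor left out the counts were 0 to 0, 0 to 3, 0 to 18 and 0 to 0 for i.v. TLZ, NanoTLZ and both against saline and NanoTLZ against i.v. TLZ. *Col2a1* lost its call for NanoTLZ against saline without saline tumor 2, i.v. TLZ tumor 3 or NanoTLZ tumor 2, and in edgeR fitted to 2 groups. It lost the call for both treatments in 6 of the 9 edgeR fits with 1 tumor left out. The adjusted p of this test was 0.0702 to 0.145 in those 6 fits and 0.0178 to 0.0288 in the fits that kept the call. Other settings gained calls, in contrasts with saline that were used to choose the genes. *Col2a1* was called for i.v. TLZ by DESeq2 on all tumors (adjusted p of 3.1e-10), by DESeq2 on 2 groups (4.7e-10) and by edgeR without a filter (0.0118). *Acan* was called by DESeq2 on all tumors for NanoTLZ (0.0496) and for both treatments (0.0110) and on 2 groups for i.v. TLZ (0.0229) and NanoTLZ (1.5e-05), and *Snorc* as lower for i.v. TLZ by DESeq2 on 2 groups (0.0163). For NanoTLZ against i.v. TLZ, *Col2a1* was called by DESeq2 on 2 groups (0.0241). In these comparisons the log2 fold change of *Col2a1* kept its direction in each alternative. The cause of these differences was not tested.

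The sign of several fold changes turned, including large ones of *Cnmd* and *Hapln1*. With limma-voom the log2 fold change against saline of *Col9a1* was 0.25 for i.v. TLZ and 0.70 for both treatments, that of *Col9a2* -0.010, 0.22 and 0.10 for i.v. TLZ, NanoTLZ and both, and that of *Sox9* and *Col9a3* 0.021 and 0.18 for NanoTLZ, and between NanoTLZ and i.v. TLZ *Col9a2* was 0.23 and *Cnmd* 1.02. *Col9a3* in NanoTLZ against saline was 0.011 with DESeq2 on all tumors, 0.0098 with DESeq2 on 2 groups, 0.013 with RLE, 0.073 with upper quartile scaling, 0.016 without a filter and 0.015 with 10 counts in every tumor, and *Col9a2* for both treatments was 0.0053 with upper quartile scaling. With 1 tumor left out, the log2 fold change of i.v. TLZ against saline ran from -0.093 to 0.83 for *Sox9*, -1.07 to 0.58 for *Col9a1*, -0.79 to 1.22 for *Col9a2* and -6.42 to 2.37 for *Cnmd*. For NanoTLZ against saline it ran from -0.57 to 0.34 for *Sox9*, -0.24 to 1.401 for *Col9a1*, -0.54 to 1.02 for *Col9a2*, -0.26 to 0.71 for *Col9a3*, -4.77 to 1.15 for *Cnmd* and -3.50 to 0.41 for *Hapln1*. For both treatments it ran from -0.33 to 0.59 for *Sox9*, -0.66 to 0.99 for *Col9a1*, -0.46 to 1.12 for *Col9a2*, -0.72 to 0.26 for *Col9a3* and -5.05 to 1.76 for *Cnmd*. For NanoTLZ against i.v. TLZ it ran from -0.17 to 2.13 for *Acan*, -0.69 to 0.67 for *Col9a2*, -0.073 to 1.04 for *Col11a2*, -0.75 to 1.82 for *Snorc* and -2.34 to 2.74 for *Cnmd*. The correlation with *Col2a1* within groups ran from -0.56 to 0.77 for *Sox9*, -0.88 to 0.088 for *Col9a1*, -0.13 to 0.33 for *Col9a2*, -0.21 to 0.80 for *Col9a3* and -0.75 to 0.73 for *Hapln1*, and kept its sign with another prior count and with RLE scaling in all 18 values. No paired analysis was made, since the labels give no pairing of tumors between groups. Several genes had counts near the floor in some tumors, among them *Hapln1*, *Gm26633*, *Fgf18* and *Phex*. Their fitted fold changes can depend on the prior count of the fit, for which no other value was tried.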

Other observations

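Other genes of cartilage and its precursors were high in single tumors, and were picked for that after their values were seen. Saline tumor 3, which held the highest *Snorc* and *Cnmd*, had 3822 counts of *Bmp7* and 886 of *Bmp6*, ligands that promote cartilage formation, and 558 of *Foxd3*, a neural crest factor. In the other 8 tumors these genes reached at most 701, 429 and 26 counts, in each case in i.v. TLZ tumor 2, which held the second highest *Cnmd* and the highest *Acan*. That tumor also had 2148 counts of *Twist1*, a mesenchymal factor, against 84 to 892 in the other 8, and 870 of *Sox5*, a partner of SOX9, against 45 to 243. *Ucma*, a secreted protein of growth plate cartilage, was highest at 462 counts in NanoTLZ tumor 3, which held the highest *Col2a1* and *Col11a2*, and had 0 to 261 counts elsewhere.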
